A study of Mus musculus with 4 samples.

Results

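In V6.5 mouse embryonic stem cells, 414 stretches of the genome were enriched for both MCAF1 and Ring1b and met the calling threshold for neither REST nor H4K20me3. They made up 20.3% (414 of 2044, exact 95% interval 18.5 to 22.1%) of all regions enriched for MCAF1. Members were selected on measured values: each is an MCAF1 region that overlaps a Ring1b region and no region of the other 2 libraries. The MCAF1 and Ring1b enrichment of these regions, and their lack of REST and H4K20me3 calls, are therefore a description of the choice and were not tested.

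The data are chromatin immunoprecipitations followed by sequencing, with 1 library for each of the antibodies against MCAF1, Ring1b, REST and H4K20me3. All 4 libraries came from the same line, V6.5, of mixed C57BL/6 and 129 background, with no genetic change or treatment given in the labels. Cells were kept off feeder cells for 2 passages before the MCAF1, Ring1b and H4K20me3 experiments and for 1 passage before the REST experiment. Each library had its own flow cell, so antibody and sequencing run cannot be told apart, and neither an input nor a control antibody was analysed here.

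MCAF1 is another name for ATF7IP, which binds SETDB1, a methyltransferase of histone H3 lysine 9, and helps to keep that enzyme in the nucleus. Ring1b is the catalytic E3 ligase of Polycomb repressive complex 1, which attaches ubiquitin to histone H2A, and in embryonic stem cells it is known for occupying the CpG-rich promoters of silent developmental genes. Constitutive heterochromatin carries H4K20me3, the trimethylated form of histone H4 at lysine 20, which is laid down downstream of H3 lysine 9 trimethylation. REST is a zinc finger repressor that binds the regulatory elements of neuronal genes and holds them silent outside neurons.

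A window of 1000 bp counted as enriched when its read number had a Poisson probability of at most 1e-09 and was at least 5 times the background, the larger of the genome mean and the mean of the surrounding 1 Mb in the same library. A fold is the read number of a window over that background. Of 4598722 covered windows, 0.0726% were called for MCAF1, 0.625% for Ring1b, 0.100% for REST and 0.396% for H4K20me3. The libraries held 3083311 (Ring1b) to 11023569 (MCAF1) distinct reads with 1 location, and this depth set what could be called. Where the background was the genome mean, a call needed 24 reads or 5.01-fold for MCAF1, 14 reads or 10.4-fold for Ring1b, 14 reads or 10.3-fold for REST and 20 reads or 5.91-fold for H4K20me3. At such a background, the absence of a REST call in a member thus meant fewer reads than about 10 times background, not an absence of REST reads. Over a higher local background a lower fold, of at least 5, was enough for a call. Genes and base sequences are not given here, because no annotation or genome of the files' build (mm8) was used. All coordinates are mm8 and count from 1. The intervals describe counting error alone, because each antibody had 1 library and no spread between libraries could enter them. Reads copied by PCR are not separate molecules, and reads at an already occupied position and strand were removed before counting.

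Members were short and carried more Ring1b than MCAF1 enrichment. Of the 414 regions, 233 (56.3%) were 1000 bp wide, 168 (40.6%) were 1500 bp, 12 were 2000 bp and 1 was 2500 bp, and together they covered 511.5 kb. In the window with the most MCAF1 reads, the MCAF1 fold had a median of 5.63, with quartiles of 5.26 and 6.44, and it ran between 5.01 and 14.3. The Ring1b fold in that same window had a median of 12.8, with quartiles of 10.2 and 16.85, and it ran between 1.34 and 44.8. Most members lay close above the MCAF1 threshold, while the Ring1b values were spread widely. An MCAF1 fold of at least 6 was seen in 164 members, of at least 8 in 32 and of at least 10 in 12. A Ring1b fold of at least 10 was seen in 314 members (75.8%), of at least 20 in 56 and of at least 30 in 17. The Ring1b fold was above the MCAF1 fold in 403 members (97.3%), although a Ring1b call also needed the higher fold.

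**Figure D1:**
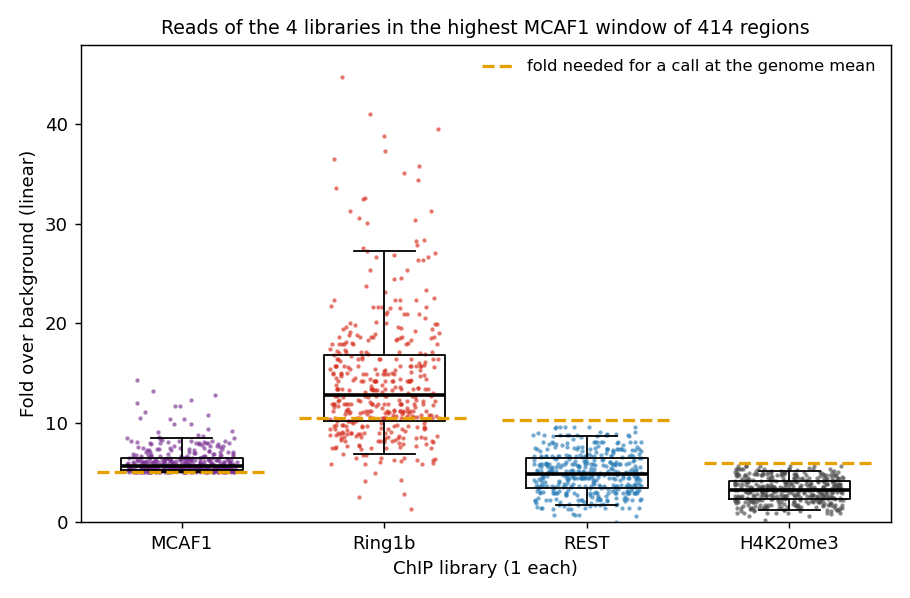
Fold over background (vertical axis, linear) of each library in the highest MCAF1 window of the 414 members. Points are regions, boxes span the quartiles with the median as a line and whiskers at percentiles 5 and 95, and dashed lines mark the fold needed for a call at the genome mean. The medians were 5.63 for MCAF1, 12.8 for Ring1b, 4.87 for REST and 3.25 for H4K20me3.

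REST and H4K20me3 reads were present in most members at levels below a call. In the highest MCAF1 window the REST fold had a median of 4.87, with quartiles of 3.44 and 6.49 and a range of 0 to 9.55. The H4K20me3 fold had a median of 3.25, with quartiles of 2.36 and 4.14 and a range of 0.228 to 5.61. The exact 95% interval of the fold lay above 1 in 335 members (80.9%) for REST and in 331 (80.0%) for H4K20me3. REST reached at least 5-fold, the minimum used for a call, in 197 members (47.6%), which at this library's depth fell short of the probability threshold. The same shares over all covered windows are not given here, so these counts are not a trait of members. Median folds were also above 1 in MCAF1 regions without any other call (REST 2.94, H4K20me3 2.66). In Ring1b regions without any other call they were 3.46 and 2.90 in the highest Ring1b window. The MCAF1 fold was above both the REST and the H4K20me3 fold in 283 members (68.4%).

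When REST and H4K20me3 were called at a probability of 1e-06 in place of 1e-09, 0.212% of windows were called for REST and 0.472% for H4K20me3. At that threshold 111 members (26.8%, 22.6 to 31.4%) overlapped a REST region and 65 (15.7%, 12.3 to 19.6%) an H4K20me3 region, and 258 (62.3%) overlapped neither. Only 43 members (10.4%) had both folds below 3 and 5 (1.21%) had both below 2. These 5, singled out after their values were seen, still had MCAF1 folds of 5.20 to 7.54. The strongest of them, on chromosome 9 at 104120501–104122000, had 41 MCAF1 reads (7.54-fold, 5.41 to 10.2) and 30 Ring1b reads (22.4-fold, 15.1 to 31.9). It had 2 REST reads (1.41-fold, 0.171 to 5.08) and 6 H4K20me3 reads (1.702-fold, 0.625 to 3.70).

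The region with the highest MCAF1 fold lay on chromosome 14 at 56952501–56954000, and it also led by the smaller of its MCAF1 and Ring1b folds. Its highest window held 87 MCAF1 reads (14.3-fold, 11.4 to 17.6), 40 Ring1b reads (15.2-fold, 10.8 to 20.7), 4 REST reads (2.66-fold, 0.726 to 6.82) and 20 H4K20me3 reads (4.84-fold, 2.96 to 7.47). MCAF1 and Ring1b were thus at like folds here, unlike in most members.

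On chromosome 4 at 126579001–126580500, 101 MCAF1 reads (13.2-fold, 10.75 to 16.03) and 28 Ring1b reads (13.3-fold, 8.81 to 19.2) were counted. REST stood at 5 reads (2.17-fold, 0.706 to 5.08) and H4K20me3 at 12 reads (2.24-fold, 1.16 to 3.92) in that window. Both values were far below those of MCAF1 and Ring1b, with intervals that did not overlap theirs.

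On the same chromosome at 128614501–128616500, the window held 120 MCAF1 reads (12.8-fold), 49 Ring1b reads (18.3-fold), 12 REST reads (4.23-fold) and 14 H4K20me3 reads (1.99-fold). A region on chromosome 3 at 153842501–153844000 had 75 MCAF1 reads (12.3-fold), 55 Ring1b reads (26.9-fold), 11 REST reads (7.30-fold) and 10 H4K20me3 reads (2.30-fold). Here REST was the higher of the uncalled pair, as it was by the medians over all members. The rule cut these folds off at unlike heights, at the genome mean 10.3-fold for REST and 5.91-fold for H4K20me3. Their order is therefore a description of the choice.

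The next 2 members by MCAF1 fold carried Ring1b at more than 30-fold. On chromosome 18 at 39616501–39618500 there were 60 MCAF1 reads (12.0-fold), 47 Ring1b reads (35.05-fold), 7 REST reads (5.14-fold) and 13 H4K20me3 reads (3.84-fold). On chromosome 13 at 82259501–82261500 there were 56 MCAF1 reads (11.7-fold), 48 Ring1b reads (35.8-fold), 2 REST reads (1.47-fold) and 17 H4K20me3 reads (5.02-fold). The remaining 4 of the first 10 had MCAF1 folds of 10.4 to 11.7 and Ring1b folds of 10.2 to 22.4. Among them, chromosome 9 at 21117501–21119000 had the most MCAF1 reads of the 10, with 121 (11.7-fold over a high local background), and the only Ring1b fold (10.2) below its MCAF1 fold. The widest member, on chromosome 13 at 111139001–111141500, was modest by comparison, with an MCAF1 fold of 6.25 and a Ring1b fold of 14.4.

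**Figure D2:**
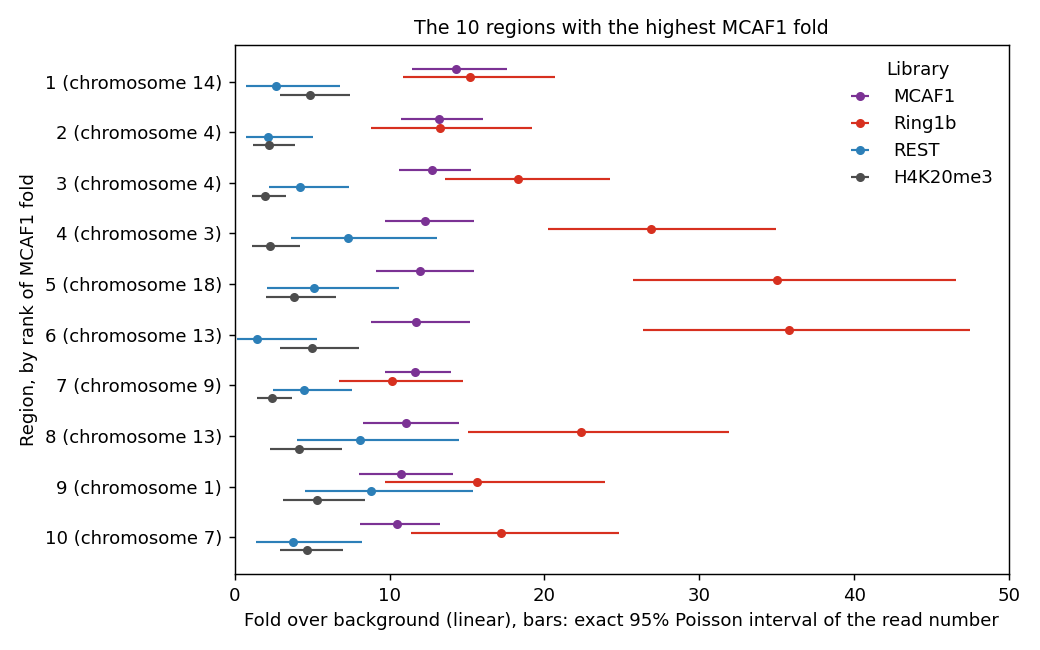
Fold over background (horizontal axis, linear) of the 4 libraries in the highest MCAF1 window of the 10 members with the highest MCAF1 fold, ranked from the top. Points are folds and bars exact 95% intervals of the read number. MCAF1 sits between 10.4 and 14.3 throughout, while Ring1b runs from 10.2 to 35.8.

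Ranked by the highest window of the Ring1b region they overlap, members formed another list. Its first entry lay on chromosome 1 at 46798001–46799500, where the Ring1b region reached 64.1-fold in a window 500 bp away, against 11.9-fold for Ring1b and 7.30-fold for MCAF1 in the highest MCAF1 window. Entries on chromosome 4 at 109473501–109474500 and chromosome 6 at 6828001–6829500 lay inside wide Ring1b regions of 13.5 and 14 kb that peaked at 63.8 and 59.7-fold. In these, the MCAF1 fold was 5.01 and 6.05, close to the minimum. The highest Ring1b fold in an MCAF1 window itself was on chromosome 5 at 138017001–138018500, with 108 Ring1b reads (44.8-fold, 36.7 to 54.1), 87 MCAF1 reads (10.4-fold, 8.30 to 12.8), 9 REST reads (4.01-fold) and 29 H4K20me3 reads (4.49-fold). Of the first 10 by Ring1b region, MCAF1 folds ran between 5.01 and 10.4, and only the region on chromosome 5 was above 10-fold.

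Across the 414 members, the folds of the 4 libraries in the highest MCAF1 window were weakly related. Spearman's rho was 0.247 between Ring1b and MCAF1 (Pearson's r of log2 of the fold plus 0.5, 0.272), 0.187 between H4K20me3 and Ring1b, 0.202 between H4K20me3 and REST, 0.138 between H4K20me3 and MCAF1, 0.101 between REST and Ring1b and 0.0727 between REST and MCAF1. These points share libraries, local backgrounds and the choice of the MCAF1 window, and they were chosen above a minimum, so the values are a description over regions.

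The MCAF1 and Ring1b summits coincided at the resolution of the windows. The highest windows of both were the same window in 295 members (71.3%, 66.6 to 75.6%), 500 bp apart in 104 (25.1%), 1000 bp apart in 8 and further apart in 7. The rule asked only for an overlap of the regions, but regions of this width leave little room for distance. Only 7 members (1.69%) overlapped a Ring1b region wider than 3 kb. The largest distance was 4500 bp, in the wide Ring1b region of chromosome 6 named above. On chromosome 7 at 83760501–83762000, the highest MCAF1 window (33 reads, 5.56-fold) held only 4 Ring1b reads (2.89-fold, 0.787 to 7.39), while the Ring1b region beside it reached 30.3-fold at a distance of 2500 bp. It was among the 11 members whose Ring1b fold did not exceed their MCAF1 fold.

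Averaged around the highest MCAF1 window, MCAF1 reads reached 9.77 times and Ring1b reads 23.0 times the genome mean, and both peaks were 800 bp wide midway between flank and summit. REST and H4K20me3 also peaked at the centre, at 7.11 and 4.63 times the genome mean, with broader widths of 1000 and 1300 bp. The gel slices were 150 to 350 bp for these libraries, against 150 to 300 bp for MCAF1 and Ring1b, and the part of this in the widths was not tested. The averages thus show a central rise in all 4 libraries, including those without a call. In the 479 MCAF1 regions that overlapped Ring1b and H4K20me3 regions but no REST region, the summits were 9.33 for MCAF1, 26.9 for Ring1b, 7.21 for REST and 9.46 for H4K20me3. The REST summit of members (7.11) was close to that of these regions (7.21), and REST calls were excluded from both sets alike. In the 522 MCAF1 regions without any other call, the summits were 9.27 for MCAF1, 6.02 for Ring1b, 4.29 for REST and 3.75 for H4K20me3. The rule set each Ring1b difference between a set with Ring1b calls and the set without. It also set each H4K20me3 difference between the set with H4K20me3 calls and those without. All of these sets passed the same MCAF1 threshold and lacked REST calls, so likeness in MCAF1 and REST was partly set by the rule. The remaining differences in summit were not asked for by the rule, and with 1 library per antibody none was tested.

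**Figure D3:**
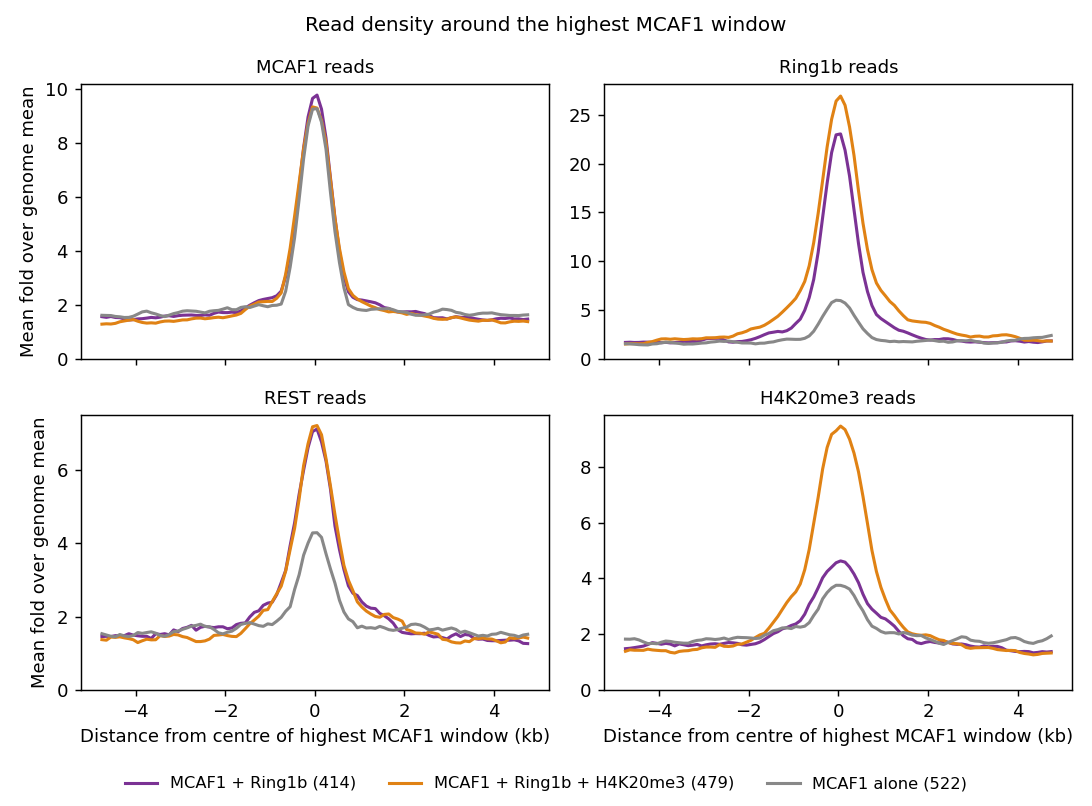
Mean read density over the genome mean (vertical axes, linear) against distance from the centre of the highest MCAF1 window (kb), 1 panel per library, smoothed over 5 bins of 100 bp. Lines are the 414 members, the 479 regions that also overlap H4K20me3 and the 522 MCAF1 regions without other calls. MCAF1 peaks between 9.27 and 9.77 in all 3 sets, and H4K20me3 peaks at 4.63, 9.46 and 3.75.

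Members lay between the other sets of MCAF1 regions in Ring1b and H4K20me3 and close to both in MCAF1. Summed over their whole length, they held 17382 MCAF1 reads (7.09 times the genome mean, 6.98 to 7.19), 11142 Ring1b reads (16.2 times), 3898 REST reads (5.60 times, 5.42 to 5.78) and 7164 H4K20me3 reads (4.14 times, 4.04 to 4.24). The 479 regions with H4K20me3 had sums of 6.84, 19.7, 5.50 and 8.16 times the genome mean for MCAF1, Ring1b, REST and H4K20me3 in that order. The 522 regions without other calls had 6.78, 4.67, 3.48 and 3.46 times. MCAF1 differed little between the sets, by summed density or by the median fold in the highest window. That median was 5.63 in members, 6.01 with H4K20me3 and 5.51 without other calls. All of these regions had passed the same MCAF1 threshold, and the medians lay close above it, so the likeness is partly set by the rule. The ratio of MCAF1 to H4K20me3 fold had a median of 1.88 in members, 0.908 in the regions with H4K20me3 and 2.22 in those without other calls. The rule set the Ring1b gap between members and the regions without other calls. It also set the gaps in H4K20me3 and in this ratio between members and the regions with H4K20me3. These gaps are therefore a description of the choice.

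The split between members and the regions with H4K20me3 fell within a continuous range. The highest H4K20me3 value was 19 reads (5.61-fold), shared by 7 members, among them those on chromosome 6 at 66464001–66465500, chromosome 13 at 101933001–101934500 and chromosome 11 at 21270501–21272000. Just outside, the weakest H4K20me3 regions that kept an MCAF1 and Ring1b region from being a member reached 5.06-fold on chromosome 6 at 48466501–48468000, 5.08-fold on chromosome 15 at 75809001–75810000 and 5.09-fold on chromosome 7 at 37936001–37937000. These called folds were below the uncalled ones because their local background was higher, so that fewer fold were needed to reach the probability threshold. At the MCAF1 threshold, the lowest members had 24 reads (5.01-fold), among them chromosome 1 at 71036001–71037000, chromosome 1 at 82195001–82196500 and chromosome 2 at 109081501–109082500. Among Ring1b regions without other calls, the MCAF1 fold in the highest Ring1b window reached 4.998. The 3 such regions with the lowest Poisson probability of an MCAF1 window were on chromosome 8 at 125928501–125929500 (4.83-fold), chromosome 5 at 136400501–136401500 (4.92-fold) and chromosome 8 at 73558501–73559500 (4.45-fold). For REST, the highest value was 13 reads (9.55-fold), shared by 6 members, among them those on chromosome 13 at 22057501–22059000, chromosome 2 at 11452501–11454000 and chromosome 16 at 45077501–45078500.

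Seen from Ring1b, members overlapped 413 Ring1b regions, which were set beside the 4818 Ring1b regions without any other call. At the highest Ring1b window the MCAF1 fold had a median of 5.51 in the members' Ring1b regions and 2.37 in the Ring1b regions without other calls, a difference the rule fixed. The Ring1b fold, which the rule used only as a minimum in both sets, had a median of 13.5 (quartiles 10.8 and 17.9) against 10.4 (8.57 and 13.3). REST had a median of 4.90 against 3.46 and H4K20me3 of 3.49 against 2.90. By fold over local background, all 4 medians were higher at the members' Ring1b regions. Over the genome mean this did not hold for each library: the averaged summits were 24.6 against 23.8 for Ring1b and 4.89 against 4.93 for H4K20me3, but 7.23 against 6.10 for REST. The medians were taken in 1 library each and the quartile ranges overlapped for Ring1b, REST and H4K20me3.

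The surroundings ran the other way. Between 2 and 10 kb from the region, the median density over the genome mean was 1.37 for MCAF1, 1.07 for Ring1b, 1.22 for REST and 1.25 for H4K20me3 around members. Around the Ring1b regions without other calls it was 1.63, 1.40, 1.52 and 1.64 for the same libraries. The averaged Ring1b profile had a flank of 1.60 times the genome mean for the members' Ring1b regions, against 3.66 for the others, under nearly equal summits of 24.6 and 23.8. The averaged Ring1b peak was also narrower for the members' Ring1b regions, at 800 bp against 1000 bp. The widths of single Ring1b regions had the same quartiles and median in both sets (1000, 1500 and 1500 bp). They ran up to 14000 bp for members and 19500 bp for the others. The median background of a window was 5.90 MCAF1 and 1.498 Ring1b reads for members and 7.27 and 2.02 for Ring1b regions without other calls. A lower local background lowers the read number an MCAF1 call needs, and the part of this in the choice of members was not tested.

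**Figure D4:**
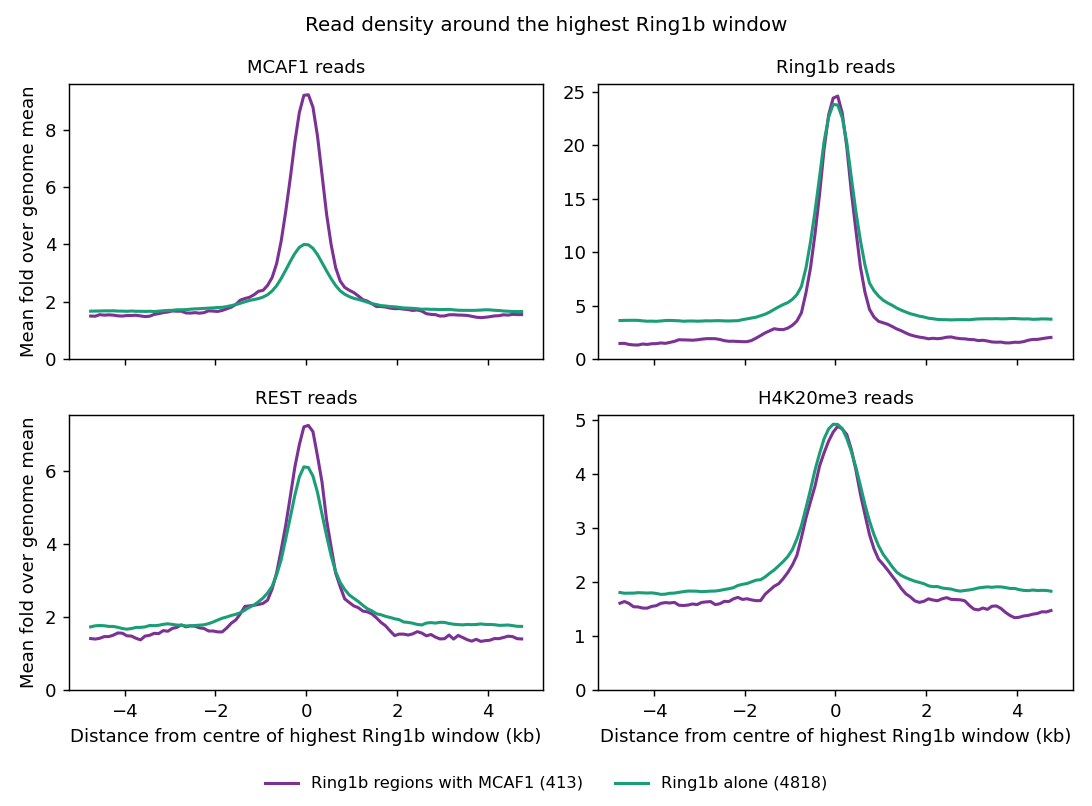
Mean read density over the genome mean (vertical axes, linear) against distance from the centre of the highest Ring1b window (kb), 1 panel per library, smoothed over 5 bins of 100 bp. Lines are the 413 Ring1b regions of members and the 4818 Ring1b regions without other calls. The Ring1b summits are 24.6 and 23.8, and the Ring1b flanks 1.60 and 3.66.

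MCAF1 calls were also counted by the Ring1b fold, as a description, since both values entered the choice of members. Of 5216 Ring1b regions with neither REST nor H4K20me3, 398 (7.63%, 6.92 to 8.38%) held an MCAF1 region. Split into 4 equal groups of rising Ring1b fold, the share was 2.38%, 4.68%, 8.51% and 14.95%. The median MCAF1 fold of the groups moved little, at 2.27, 2.53, 2.69 and 2.59, and its upper quartile was 2.90, 3.27, 3.64 and 3.78. The median MCAF1 read number of the window was 19, 18, 18 and 16, so the raw MCAF1 reads did not increase with the Ring1b fold. The median MCAF1 background was 8.51, 7.24, 6.55 and 6.07 reads and the median Ring1b background 2.58, 1.93, 1.67 and 1.60 reads. Both backgrounds fell along the groups, and their part in the rising share was not tested.

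Few members lay in wide Ring1b domains. Ring1b regions within 10 kb of each other joined into 429 domains wider than 10 kb, of which 34 held a member, with 36 members in all (8.70%, 6.17 to 11.8%). The share was 7.52% of the regions with H4K20me3 and 12.9% (12.0 to 13.9%) of the Ring1b regions without other calls. The widest domain with a member spanned 60 kb on chromosome 11 at 3035001–3095000, and the 3 wider domains, of 108 to 126.5 kb, held none. Members inside domains had a median Ring1b fold of 11.3 (quartiles 8.49 and 16.7), against 13.0 (10.4 and 16.85) outside. Their MCAF1 folds were 5.54 inside and 5.65 outside, and the quartile ranges of both libraries overlapped.

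By medians, members lay nearer to H4K20me3 and REST regions than covered sequence as a whole. The nearest H4K20me3 region was a median of 41000 bp away and lay within 10 kb of 91 members (22.0%, 18.1 to 26.3%). For covered windows outside H4K20me3 regions the median was 132000 bp and the share 7.19%. The Ring1b regions without other calls had a median of 52500 bp and a share of 16.85% (15.8 to 17.9%), and the MCAF1 regions without other calls 45500 bp and 21.3%. The nearest REST region was a median of 198500 bp away and lay within 10 kb of 20 members (4.83%, 2.97 to 7.36%). That share was 6.37% (5.70 to 7.10%) for the Ring1b regions and 5.17% for the MCAF1 regions without other calls, and 2.28%, with a median of 546000 bp, for covered windows outside REST regions. Of the 413 Ring1b regions of members, 15 (3.63%) held an H4K20me3 region and 3 (0.726%) a REST region elsewhere along their length. In these, a call was missing only from the MCAF1-enriched stretch. Of all 10580 Ring1b regions, 5216 overlapped neither a REST nor an H4K20me3 region. The rule left out members with such calls in the MCAF1 region, which lowers the counts for members.

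Members were scattered singly over the autosomes, at 0.189 per Mb (0.171 to 0.208) of covered sequence. The median gap between neighbours was 3415 kb, and with a linking distance of 100 kb, 373 stood alone, 19 pairs formed and 1 group of 3 formed. That group spanned 77.5 kb on chromosome 13 at 21981501–22059000, with MCAF1 folds of 5.22 to 7.93 and Ring1b folds of 6.71 to 27.9. Chromosome 7 had the highest density, 0.314 per Mb (0.223 to 0.432), and chromosome 15 the lowest of the autosomes, 0.0855 per Mb (0.0369 to 0.168). They were picked as the extremes of the autosomes, so their intervals are a description. All Ring1b regions were also dense on chromosome 7, at 6.17 per Mb, while chromosome 15 had 4.51 per Mb, against 4.77 on the autosomes together.

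The X chromosome held 1 member, or 0.00877 per Mb (0.000222 to 0.0488), and the Y chromosome none. Ring1b regions were also sparser on the X chromosome, at 1.45 per Mb against 4.77 on autosomes. Read density on the X was 0.358 (MCAF1), 0.375 (Ring1b), 0.402 (REST) and 0.313 (H4K20me3) of that on autosomes, while a call was never set against less than the genome mean. The part of this lower coverage in the count on the X chromosome was not tested.

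**Figure D5:**
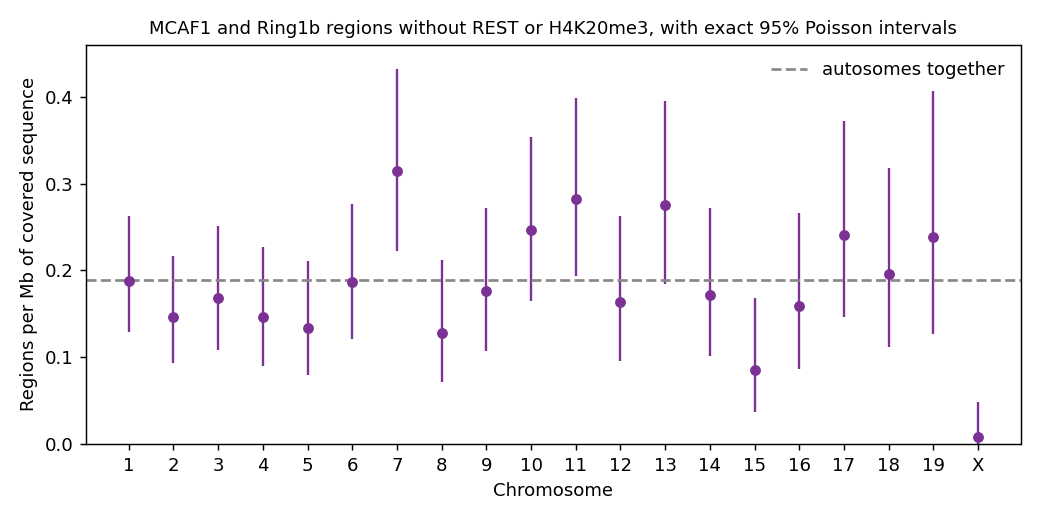
Members per Mb of covered sequence (linear axis) on each chromosome, with exact 95% intervals of the count and the autosomal value of 0.189 as a line. Chromosome 7 stands at 0.314, chromosome 15 at 0.0855 and the X chromosome at 0.00877.

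With no input library, the other antibodies' libraries were the only measure of how readily these stretches were recovered. Set against the pooled REST and H4K20me3 reads of the same window, scaled to their summed genome mean, MCAF1 had a median ratio of 1.61 (quartiles 1.304 and 2.10) and was above 1 in 397 of 414 members. Ring1b had a median ratio of 3.54 (2.60 and 4.99) and was above 1 in 412. When these pooled reads also served as a background in the calling, 59 MCAF1 regions and 2648 Ring1b regions remained in the genome. Of the 414 members, 7 then overlapped an MCAF1 region, 107 a Ring1b region, and 5 a region that met the whole rule. The 5 were on chromosome 4 at 126579001–126580500, chromosome 10 at 107702501–107704000, chromosome 13 at 82259501–82261500, chromosome 14 at 78185001–78186500 and chromosome 9 at 104120501–104122000. Their MCAF1 folds over local background ran from 7.54 to 13.2 and their REST folds from 0.587 to 2.17. H4K20me3 folds of the same members ran from 1.702 to 5.02. The highest of these, from 17 reads, was in the member on chromosome 13. That member also overlapped an H4K20me3 region at the looser probability threshold given above. This pooled background was chosen after the data were examined, and since it contains the reads of the libraries whose calls define membership, it is a description. How much of the MCAF1 enrichment of the other members is shared by all libraries was not separated further.

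Members held 0.158% of the distinct MCAF1 reads and 0.361% of the Ring1b reads, against 0.125% for REST and 0.0921% for H4K20me3. Reads of both strands were present in equal measure, with plus-strand shares of 50.3% for MCAF1 and 49.7% for Ring1b. Reads at an already occupied position and strand, which were removed, had made up 13.9% of MCAF1 reads in members against 12.2% over the genome, and 6.64% of Ring1b reads against 6.31%.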

How the data were processed

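The deposited files of the authors hold signed read positions, a unit of their own that is neither normalised nor a count per feature. The aligner was Bowtie and the assembly mm8, per the submitters' processing notes and per the file headers, while the Bowtie version is not stated there. The authors' settings, per the file headers, were at most 2 locations a read, 2 seed mismatches, a mismatch quality sum of 70 and a seed of 26 (REST, Ring1b) or 36 bases (MCAF1, H4K20me3). No source used here says which base a minus-strand position marks, so shifts of 0, 50 and 100 bp were also tried.

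Reads with 1 location were kept once per position and strand and moved 75 bp towards their 3′ end. Windows of 1000 bp were placed every 500 bp, and those with a read of any library counted as covered. Calling used the Poisson rule given above, and overlapping called windows were joined (Python 3.11.15, numpy 2.4.6, scipy 1.17.1, figures with matplotlib 3.10.9). The caller was tested on simulated data with an even background. The members planted there had MCAF1 and Ring1b well above their thresholds and REST and H4K20me3 well below theirs. Regions close to a threshold, as most members were for MCAF1, were not simulated, so that test does not show how they are called. Intervals are exact Poisson or Clopper-Pearson at 95%. With 1 library per antibody there was no test between groups.

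Regions named in the text are the 10 highest members by MCAF1 fold and by Ring1b region, the 5 highest by the smaller fold, the 5 widest, the 3 nearest each threshold on both sides, and groups of at least 3 members within 100 kb; others were named after their values were seen. The members, comparison sets and thresholds were chosen with earlier results of these data known. Alternatives changed the repeat handling, shift, probability, minimum fold, window, background, overlap, depth and locations.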

Additional observations from a re-analysis of the deposited data

Results flagged for a closer look

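Reads with 2 reported locations were left out of the calls, and in all 4 libraries their density in members lay above their own genome mean. Ring1b had 431 such reads in members, 5.19 times the genome mean (exact 95% interval 4.71 to 5.70), spread over 156 regions with 51.3% in the 10 regions that held the most. MCAF1 had 284 (1.735 times, 1.54 to 1.95), of which 75.4% lay in 10 regions. REST had 180 (1.81 times, 1.56 to 2.10) and H4K20me3 had 225 (1.804 times, 1.58 to 2.06), the last with 78.2% in 10 regions. In the MCAF1 regions without other calls the MCAF1 value was higher, at 5.90 times from 1185 reads, and the Ring1b value lower, at 3.55 times. The Ring1b value of members was not particular to them. It was 5.42 times in the Ring1b regions without other calls and 6.42 times in the MCAF1 and Ring1b regions with H4K20me3.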

How the results depend on the processing

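Shifts of 0, 50 and 100 bp left the number of members within 1.5 times of 414. Their share of MCAF1 regions and the 4 median folds stayed within the exact 95% interval of each. An overlap of at least 500 bp could change nothing, because windows placed every 500 bp make any overlap at least that long. The median distance between the highest MCAF1 and Ring1b windows was 0 bp under all 16 settings that gave it. The number depended most on the minimum fold, the window, the background and depth. At least 4 times background gave 658 members (median folds MCAF1 5.10, Ring1b 11.5, H4K20me3 2.99) and at least 8 times gave 62 (9.34, 18.2, 4.78, REST 5.22). Windows of 500 bp gave 767 members, 22.1% of MCAF1 regions (MCAF1 7.07, Ring1b 16.5, REST 5.70), and windows of 2000 bp gave 82 (Ring1b 10.01, H4K20me3 3.54, REST 3.83). A local background over 100 kb gave 252 (MCAF1 5.85, H4K20me3 3.43, REST 4.41), and the genome mean alone gave 1257, 12.7% (MCAF1 5.84, H4K20me3 3.55). With REST and H4K20me3 called at 1e-06 there were 258, 12.6% (REST 4.04). With all libraries drawn to equal depth there were 101, 27.75% (MCAF1 9.77, Ring1b 14.0, H4K20me3 3.69, REST 4.499), of which 56 of the 414 members overlapped one. Pooled REST and H4K20me3 reads as background, chosen after seeing the data, gave 6, 10.2%. A probability of 1e-06 in all libraries gave a share of 17.2% (Ring1b 10.54, H4K20me3 2.97, REST 4.09), and 1e-12 gave 23.7% (MCAF1 6.05, Ring1b 14.2, H4K20me3 3.54). Counting all reads at a position gave 17.6% (MCAF1 5.87, Ring1b 11.95), and reads with 1 or 2 locations gave 17.2% (MCAF1 5.84). Members as reported that overlapped a member under another setting ranged from 5 with the pooled background and 31 at 8 times background to 377 with a shift of 100 bp. The overlap setting, which kept all 414 by construction, is left out of this range. The cause was not tested, except that fewer reads and higher minimums allow fewer calls by construction. No paired analysis was possible because each antibody had 1 library.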
